A study of Mus musculus with 10 samples.

Results

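Mrc1 Stab1 Fcrls macrophages are mouse tumor macrophages that were picked from single-cell counts by 6 genes, Mrc1, Stab1, Fcrls, Ccl8, Cbr2 and Gas6. A unique molecular identifier (UMI) marks 1 captured RNA molecule. A barcode was taken as a cell when it held 200 to 7000 genes and at most 10% mitochondrial UMIs, and as a macrophage when 3 conditions held. C1qa, C1qb, C1qc, Adgre1 and Csf1r together had at least 2 UMIs, these exceeded the sum of the monocyte genes Ly6c2, Plac8, Vcan and Chil3, and the tumor genes Cdh13, Pvt1, Esx1, Fmnl2 and Aebp1 together stayed under 3. A macrophage was a member when the 6 picking genes together had at least 2 UMIs and more than Lpl, Pdpn, Mmp12, Bhlhe41 and Spp1 together. This gave 176 members of 543 macrophage barcodes and of 65298 cells. The levels of these 25 genes are therefore a description and no result.

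The cells came from tumors grown by E0771 cells, a mammary carcinoma line of C57BL/6 mice, injected in the mammary fat pad of female mice aged 16 weeks and taken at day 21. WT littermates were set against EC-AGO1-KO mice, in which floxed AGO1 alleles are deleted by a Cre recombinase driven by the VE-Cadherin (Cdh5) promoter, so that the deletion is meant for endothelial cells, and the study states that monocytes do not carry it. There were 5 WT and 5 KO libraries. The KO libraries held 7 tumors, since small tumors were pooled in KO 2+3 and in KO 5+6. The labels give 2 batches, with 1 WT and 1 KO library in batch 1 and 4 of each in batch 2, and the batches were run on different sequencers. Within a group, each library came from other tumors. Ago1 itself had 3 UMIs in the WT and 2 UMIs in the KO members of batch 1, too few to check a label. Among barcodes with endothelial RNA, 2 to 34 a library, it had 1 UMI in WT 5 and 0 in the other libraries.

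Macrophages that carry the mannose receptor Mrc1 and the scavenger receptor Stab1 are known from many healthy tissues, where they take up debris and modified proteins and often lie along vessels. The same genes are raised by interleukin-4 and are commonly used to mark alternatively activated macrophages of tumors. C1qa, C1qb and C1qc encode the 3 chains of C1q, the recognition part of the classical complement pathway. In tumors, other macrophages instead carry genes of lipid handling and matrix breakdown, such as the lipase Lpl and the elastase Mmp12, and Ly6c2-high monocytes are a source of many of them.

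The 6 picking genes lie on different chromosomes, apart from Ccl8 and Cbr2 on chromosome 11. In mm10, Mrc1 lies at chr2:14229392-14332057, Stab1 at chr14:31139013-31168641, Fcrls at chr3:87250758-87263738, Ccl8 at chr11:82115185-82116799, Cbr2 at chr11:120729489-120732114 and Gas6 at chr8:13465374-13494490, all annotated as protein-coding genes. Ccl8 closes a row of chemokine genes with Ccl2, Ccl7 and Ccl12, which spans 81.2 kb (chr11:82035571-82116799). The 3 C1q genes sit within 18.7 kb of chromosome 4 (chr4:136880129-136898803). Mrc1 and Ccl8 had the most UMIs of the 6 genes. Fcrls had 0 UMIs in the monocyte set of both libraries described below, as had Cbr2 and Gas6. The promoters of Mrc1, Fcrls and Ccl8 are printed. They come from RefSeq (GRCm38.p6, the build of mm10), 250 bases before to 50 after the RefSeq start site. They lie at chr2:14229164-14229463 on the plus strand, chr3:87263475-87263774 on the minus strand and chr11:82114935-82115234 on the plus strand. For Mrc1 and Fcrls this start site is not the gene start given above, and for Fcrls it lies inside the gene. Capitals mark GAGGAA, a core of sites of the myeloid factor PU.1, on either strand.
Mrc1: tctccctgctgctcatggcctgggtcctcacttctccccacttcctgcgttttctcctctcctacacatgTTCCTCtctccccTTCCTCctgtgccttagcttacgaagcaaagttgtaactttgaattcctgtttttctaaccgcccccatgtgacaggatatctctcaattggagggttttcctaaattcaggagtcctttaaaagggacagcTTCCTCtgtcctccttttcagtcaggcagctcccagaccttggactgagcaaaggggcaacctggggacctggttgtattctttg
Fcrls: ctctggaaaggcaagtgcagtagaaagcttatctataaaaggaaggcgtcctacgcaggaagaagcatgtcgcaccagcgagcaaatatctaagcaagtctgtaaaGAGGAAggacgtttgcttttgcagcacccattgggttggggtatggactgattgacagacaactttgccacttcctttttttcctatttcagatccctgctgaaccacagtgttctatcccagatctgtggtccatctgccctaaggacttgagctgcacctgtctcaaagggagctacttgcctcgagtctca
Ccl8: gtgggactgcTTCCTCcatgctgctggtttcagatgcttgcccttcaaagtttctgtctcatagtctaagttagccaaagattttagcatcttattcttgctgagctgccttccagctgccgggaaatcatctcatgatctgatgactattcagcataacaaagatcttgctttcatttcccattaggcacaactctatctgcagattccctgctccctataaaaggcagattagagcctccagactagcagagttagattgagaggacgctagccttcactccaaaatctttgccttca
GAGGAA occurred in 5 of the 6 promoters, all but that of Gas6, and in 28.3% of 32851 RefSeq promoters of the same length. The MAF site core TGCTGA, searched on both strands like the others, was in 4 of 6 (Stab1, Fcrls, Ccl8 and Cbr2) against 19.5%, and TATAAA in 2 of 6 (Fcrls and Ccl8) against 13.6%. The AP-1 motif TGANTCA was in 0 of the 6 and in 7.81% of all promoters. Motifs for NF-kB and for interferon-stimulated genes were in 0 of the 6, against 0.411% and 3.44%. These are matches of letters in a short window.

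Nearly all members came from batch 1, in which both libraries held about the same number. WT batch 1 held 85 members and KO batch 1 held 86, together 97.2% of all members. In batch 2, KO 4 held 2, WT 5, KO 1 and KO 2+3 held 1 each, and WT 1, WT 3, WT 4 and KO 5+6 held 0. Counts of 0 allow shares of up to 0.0294% of the cells in WT 1, 0.0377% in WT 3, 0.0319% in WT 4 and 0.0416% in KO 5+6. Of the macrophage barcodes, members made up 39.0% in WT batch 1 (85 of 218, exact 95% binomial interval 32.5 to 45.8) and 39.8% in KO batch 1 (86 of 216, 33.2 to 46.7). Over batch 2 they made up 4.59% (5 of 109, 1.51 to 10.4). All intervals here cover counting error and not differences between tumors.

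**Figure D1:**
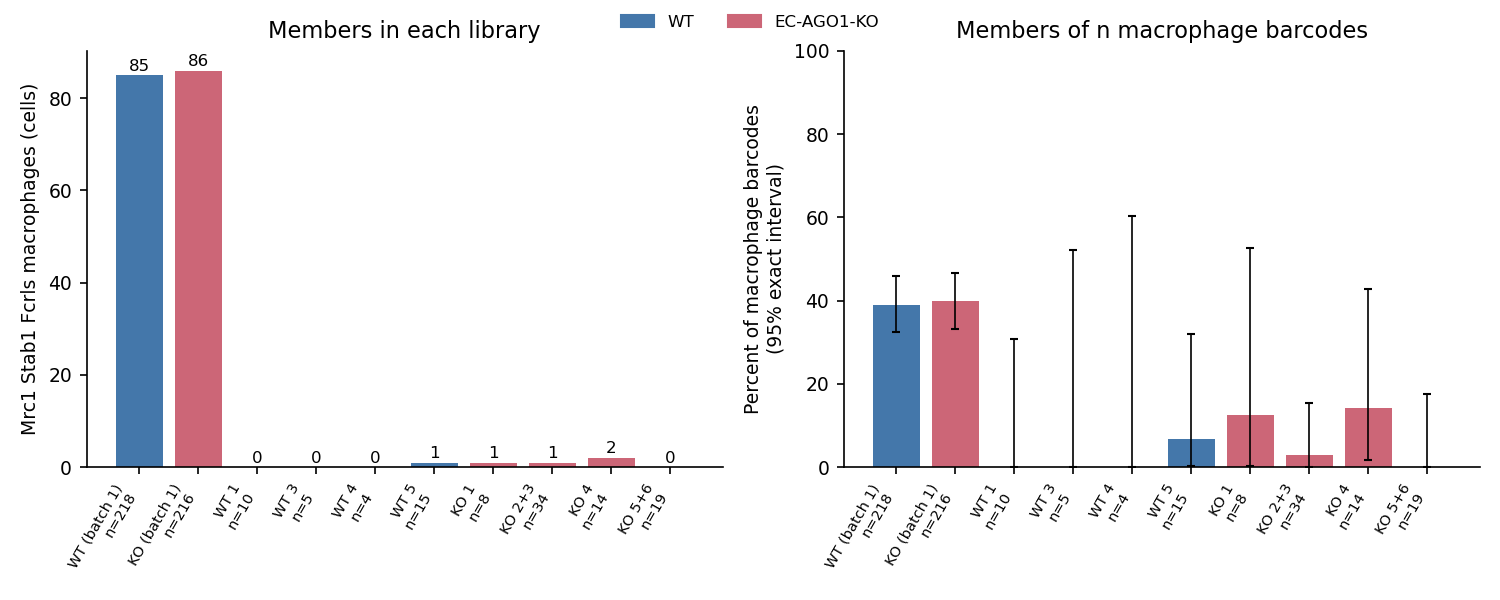
Number of Mrc1 Stab1 Fcrls macrophages in each library (left) and their percent of the macrophage barcodes with exact 95% binomial intervals (right), with n the number of macrophage barcodes. The batch 1 libraries hold 85 and 86 members, and no batch 2 library holds more than 2.

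The batches differed in depth, sequencer and cell makeup, which cannot be told apart. The libraries held similar totals, 8323896 to 10591577 UMIs, but a median cell had 4049 (WT) and 3862 (KO) UMIs in batch 1 and 595 to 1142 in batch 2. Macrophage barcodes of any kind were 20.1% of the 2162 cells of batch 1 and 0.173% of the 63136 cells of batch 2. When every barcode was thinned to 500 UMIs, 72 of 410 macrophage barcodes of batch 1 still met the rule (17.6%), against 1 of 15 in batch 2 (6.67%, exact interval 0.169 to 31.9). At this depth the batches cannot be separated in this share. The batch 1 libraries shared no cell barcode, and no pair of libraries shared more than 28.

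Over both batches, the difference between genotypes in the share of members was smaller than the SD among libraries, which includes the gap between batches. WT libraries had on average 9.13 ± 16.9% of their macrophage barcodes as members (SD, n = 5). KO libraries had 13.9 ± 15.7% (SD, n = 5), 4.78 points more. With genotype permuted inside each batch, the exact two-sided p was 0.2, where 0.0143 is the smallest that this design can give. The difference was 0.824 points in batch 1 and 5.77 points in batch 2, where it rests on 5 cells. The batch 2 libraries had 1.67 ± 3.33% in WT and 7.43 ± 7.03% in KO (SD), so there the difference exceeded the SD of WT. Of all cells, members were 1.43 ± 3.18% in WT and 1.79 ± 3.97% in KO, 0.361 points more (exact permutation p = 0.186, n = 5 and 5), with 1.77 points in batch 1 and 0.00968 in batch 2. Without both pooled KO libraries the first difference was 13.1 points (exact permutation p = 0.0333), and without KO 5+6 it was 8.25 points (exact permutation p = 0.0429). The second was 0.808 points without KO 5+6 (exact permutation p = 0.0429). Both signs turned without KO batch 1 (-1.70 and -1.41 points). By construction, leaving out a batch 2 KO library gives KO batch 1 a larger weight in the KO mean. The permuted differences are then not centred on 0. The p-values without KO libraries are therefore not two-sided in effect and were not taken as calls.

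Because only the batch 1 libraries held 10 or more members, all levels that follow come from 1 WT and 1 KO library, with no replicate and no test. Levels are CPM, the UMIs of a gene per 1000000 UMIs of the summed members, from 308502 UMIs in WT and 344363 UMIs in KO. A member had a median of 3543 UMIs in WT (1794 to 7010) and 3845.5 in KO (437 to 8102), and 1528 and 1570 genes. Intervals of levels are exact 95% Poisson intervals and those of ratios exact conditional ones, both for counting error alone. The 3′ tags count molecules, but levels of different genes are not scaled per length.

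The members carried macrophage genes that the rule did not use, which bear on the cell class and not on the difference from other macrophages. All 18 macrophage markers outside the rule were measured, with at least 50 UMIs over both libraries. Fcer1g, a signalling chain of Fc receptors, had 5951 CPM in WT and 6484 in KO, and a UMI in 85 of 85 and 86 of 86 members. The lipoprotein Apoe had 4347 and 4870 CPM, the membrane protein Ms4a7 3306 and 4048, the adaptor Tyrobp 3387 and 3313, lysozyme (Lyz2) 3160 and 2436, and the lysosomal protein Cd68 963 and 1028. Tyrobp and Lyz2 were about as high in the monocyte set (4190 and 3234 CPM in WT), while Apoe and Ms4a7 were lower there (106 and 378 CPM in WT).

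RNA of other cell types was low in the members. All 12 T cell genes, Cd3e and Trac among them, had 0 UMIs in both libraries, where barcodes chosen as T cells had 6570 and 6453 CPM of the list. The 8 fibroblast genes summed to 4 UMIs in each library, the 7 epithelial genes to 0 and 2, the 7 pericyte genes to 4 and 2, and the 5 erythroid genes to 7 and 4. The 8 endothelial genes summed to 16 and 22 UMIs, led by Pecam1, with Cdh5 at 0 and 1. The 9 neutrophil genes summed to 16 and 9. The B cell list reached 57 UMIs in WT and 27 in KO, and a single WT barcode held 31 of the 57, with all 18 UMIs of the light chain Igkc. That barcode may hold more than 1 cell, which was not tested, and doublets were not removed. The dendritic list summed to 13 and 38 UMIs, led by Relb, with Flt3 and Zbtb46 at 0. Of the tumor genes outside the rule, Vim, which macrophages carry as well, took 367 of 375 and 410 of 422 UMIs, and Tjp1 was at 0 in both.

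Free RNA was taken from barcodes of at most 50 UMIs. Its share in the members was not measured. The tumor genes Cdh13, Esx1 and Aebp1 had 288, 110 and 85.3 CPM in the free RNA of WT batch 1 and 305, 93.8 and 78.7 in that of KO batch 1. They had 0 UMIs in the members of both, where the rule caps their sum. Wwtr1, which the rule did not use, had 76.3 and 59.3 CPM in free RNA and 0 and 1 UMIs in the members, too few to tell a small share from 0.

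Mrc1 and Ccl8 chose most of the members. Mrc1, the mannose receptor, had 1050 CPM in WT (interval over counting error 939 to 1171) and 1141 in KO, from 324 and 393 UMIs. Ccl8, a chemokine known as a ligand of CCR8 in mice, had 2502 and 2634 CPM. Both genes were present in 41 of 85 WT and 45 of 86 KO members, Mrc1 without Ccl8 in 33 and 29, Ccl8 without Mrc1 in 7 and 8, and neither in 4 and 4.

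The remaining picking genes were sparser. The scavenger receptor Stab1 had 204 and 168 CPM, Fcrls, an Fc receptor-like gene that also marks microglia, 259 and 189, the carbonyl reductase Cbr2 152 and 142, and Gas6, the ligand that bridges dying cells to the receptor Mertk, 175 and 145. At 1000 UMIs per cell, Mrc1 was detected in 49.4% and 51.8% of members and Ccl8 in 44.7% and 47.0%, against 12.9% to 20% for the other 4 genes. At least 3 of the 6 genes were seen in 44 of 85 and 47 of 86 members, and all 6 in 5 and 4. The 3 C1q chains, C1qa, C1qb and C1qc, had 2677, 3812 and 2564 CPM in WT and 2921, 4013 and 3078 in KO.

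Members just inside the rule and macrophages just outside it had similar levels of genes that the rule did not use. Of the members, 11 in WT and 17 in KO had exactly 2 UMIs of the picking genes, and 13 and 13 macrophages with more of them than of the Lpl genes stayed out with 1. Folr2, F13a1, Selenop, Maf and Pf4, 5 genes outside the rule, summed to 2345 and 2053 CPM in the first and to 2010 and 1973 CPM in the second, while members with 3 UMIs or more had 7218 and 4719 and macrophages with 0 had 1109 and 1041. Without the limit on tumor genes, 96 WT and 101 KO barcodes would have been members. Pvt1 and Fmnl2, which count toward that limit, had 51.9 and 81.0 CPM in WT members and 55.2 and 87.1 in KO members.

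The 15 most abundant genes outside the rule, mitochondrial genes and genes named Rps or Rpl left out, mixed housekeeping genes with genes of iron storage, Fc signalling and lipid transport. The ferritin chains Fth1 and Ftl1 had 21757 and 21008 CPM in WT and 20182 and 17868 in KO, and the protease cathepsin B (Ctsb) had 4418 and 4591. Actb took 2.84% and 3.44% of the UMIs of the members, mitochondrial genes 3.27% and 3.41%, and ribosomal protein genes 16.5% and 14.9%. The remaining genes of the top 15 were Gm42418, Malat1, Tmsb4x, Fau, Gapdh, Itm2b, Fcer1g, Apoe, Ms4a7, Tyrobp and Pf4. Gm42418 overlaps ribosomal RNA and made up 335483 CPM of the free RNA in WT and 382715 CPM in KO, against 17076 and 18068 CPM in the members.

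Several genes of resident and perivascular macrophages were present in many members, and others in few. Of 22 such genes outside the rule, 9 were measured, among them Pf4, the platelet chemokine that macrophages also make (4301 CPM in WT and 2155 in KO), the chemokine Ccl12 (1313 and 1234), the selenium carrier Selenop (1070 and 970), the transcription factor Maf (749 and 584), the chemokine Ccl7 (639 and 680), the transglutaminase F13a1 (266 and 334) and the folate receptor Folr2 (253 and 232). Folr2 had a UMI in 36 WT and 38 KO members, and the sialic acid receptor Siglec1 in 11 and 20. Lyve1, a hyaluronan receptor, had 6 and 13 UMIs, the haemoglobin receptor Cd163 21 and 11, Vsig4 1 and 1, and Timd4 1 and 0. Lyve1, Cd163, Mgl2, Cd209f, Timd4 and Vsig4 together had a UMI in 11 WT and 11 KO members, and 7 and 7 members held 3 or more. These 6 were set apart after their values were seen. In the Lpl Pdpn Mmp12 macrophages defined below, 2 of 46 and 1 of 41 barcodes held a UMI of them, and no barcode held 3.

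Several genes that the study uses for macrophage states were found in the members at uneven levels. Cadm1, an adhesion molecule, had 408 CPM in WT (340 to 486) and 369 in KO (307 to 439), the efferocytosis receptor Mertk 133 and 142, the transcription factor Zeb2 1339 and 1516, and the tetraspanin Cd53 418 and 470. Their intervals overlap between WT and KO. The log2 ratio of Cadm1, -0.14, was 0.25 in members without any UMI of the 5 tumor genes. The interferon-induced chemokines Cxcl9 and Cxcl10 had 143 and 337 CPM in WT and 92.9 and 235 in KO, and a single KO barcode held 43.8% of the Cxcl9 UMIs. The log2 ratio of KO over WT was -0.50 for Cxcl10, but -1.12 in members without any UMI of the 5 tumor genes and -0.97 in those with at least 3 picking UMIs. That of Cxcl9 was -0.57, but -0.06 with no limit on the tumor genes. The cytokine Il10 had 11 and 13 UMIs in 8 and 8 cells.

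The members were set beside Lpl Pdpn Mmp12 macrophages, the macrophage barcodes with at least 2 UMIs of Lpl, Pdpn, Mmp12, Bhlhe41 and Spp1 and more of these than of the picking genes, 46 in WT batch 1 and 41 in KO batch 1. Members had more RNA of the cell division genes Pclaf and Top2a and of the chemokines Ccl7 and Ccl12 in both libraries. They had less RNA of MHC class II in both. Since both sets were cut from the same macrophages by their genes, the ratios are a description. They are log2 ratios of CPM with 10 CPM added, with the 25 genes of the rule left out of the totals, over 1442 genes. Of these, 1.39% (20 genes) were at least 2-fold higher and 0.624% (9 genes) at least 2-fold lower in the members of both libraries. The median over all genes was 0.04. The median depth of both sets was alike, 3543 and 3482 UMIs in WT and 3845.5 and 3496 in KO.

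MHC class II genes, whose products present peptides to CD4 T cells, were the clearest group on the low side. All 5 measured members of the list were at least 2-fold lower in both libraries, with a median of -1.42. H2-Aa had 760 CPM in members and 2357 in Lpl Pdpn Mmp12 macrophages of WT (log2 -1.62) and 927 and 2399 in KO (-1.36). H2-Eb1 had 441 and 1595 in WT (-1.83) and 620 and 1575 in KO (-1.33). The invariant chain Cd74, which guides class II molecules, had 1882 and 5114 in WT and 2133 and 5177 in KO. The peptide-loading gene H2-DMb1 stood at -1.36 and -1.49. Of the 9 genes lower in both libraries, the others were Cxcl2, a chemokine for neutrophils, Anxa1, Bcl2a1d and the haemoglobin gene Hbb-bs. Hbb-bs had 3 UMIs in the members and 143 in the Lpl Pdpn Mmp12 macrophages of WT, but 2 and 4 in KO, too few for a direction there, and it had 1002 and 531 CPM in free RNA.

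Of 14 cell division genes, 5 passed the minimum of 100 UMIs over both sets. This minimum favours genes that are high in the larger set, the members. Those 5 were above 0 in both libraries, against 504 of all 1442 genes, with a median of 1.35. Of the 5, 2 were at least 2-fold higher, against 20 of the 1442. Because of the minimum, these counts are no support of their own. Pclaf, a partner of the replication clamp, had 273 and 46.0 CPM in WT (log2 2.34) and 269 and 51.0 in KO (2.19), and the topoisomerase Top2a stood at 1.38 and 1.84. The replication-dependent histone genes Hist1h2ap, Hist1h1b and Hist1h2ae were also among the 20, with Hist1h2ap at 517 and 6.57 CPM in WT and 726 and 226 in KO. They belong to a family of near-identical genes among which the counting may have split reads. At 1000 UMIs per cell, 44.7% of WT members (38 of 85, 33.9 to 55.9) and 42.2% of KO members (35 of 83, 31.4 to 53.5) held at least 2 UMIs of the 14 cell cycle genes, against 26.7% (14.6 to 41.9) and 30.0% (16.6 to 46.5) of the Lpl Pdpn Mmp12 macrophages and 13.2% and 11.8% of the monocyte set. The intervals of members and Lpl Pdpn Mmp12 macrophages overlap in both libraries. The list includes Tubb5, which resting cells also carry, and Pclaf itself was seen in 15.3% and 10.8% of members at that depth.

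**Figure D2:**
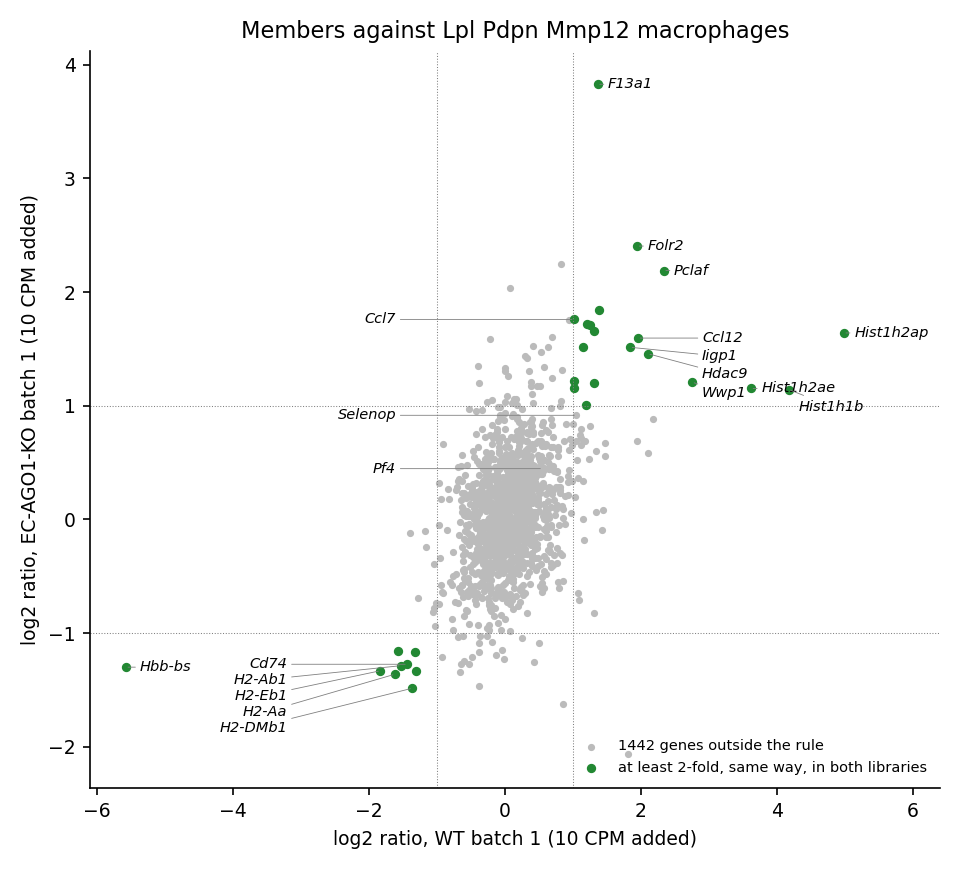
Log2 ratio of members over Lpl Pdpn Mmp12 macrophages in WT batch 1 (horizontal) and KO batch 1 (vertical), 10 CPM added, for 1442 genes outside the rule. Green points are at least 2-fold in the same direction in both libraries, with 20 genes higher, among them Folr2, Pclaf and Ccl12, and 9 lower, among them 5 genes of the MHC class II list.

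The chemokine genes next to Ccl8 were high in the members too. Ccl12, which lies beside Ccl8, had 1333 CPM in members and 335 in Lpl Pdpn Mmp12 macrophages of WT (log2 1.96) and 1254 and 408 in KO (1.6). Ccl7 had 648 and 315 in WT (1.02) and 690 and 197 in KO (1.76). Ccl2, a ligand of CCR2 on monocytes, had 1861 and 1193 CPM in WT and 1766 and 613 in KO with the rule genes in the totals. Of 12 chemokines measured, Ccl7 and Ccl12 included, 7 were above 0 in both libraries, against 504 of all 1442 genes, and the list had a median of 0.36. The 2 at least 2-fold higher, Ccl7 and Ccl12, belong to the resident list as well. Cxcl2 went the other way, with 1020 and 2541 CPM in WT and 1204 and 3055 in KO.

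Of 22 resident macrophage genes outside the rule, 9 passed the same minimum of UMIs, Folr2 and F13a1 mainly through their UMIs in the members. Of all 1442 genes, 20 were at least 2-fold higher, 504 above 0 and 389 below 0 in both libraries. Of the 9 resident genes, 4 (F13a1, Folr2, Ccl7 and Ccl12) were at least 2-fold higher in both libraries. Of the 9, 7 were above 0 in both and 1 below, with a median of 0.98, which is no support of its own. Folr2 stood at 1.95 and 2.41 and F13a1 at 1.37 and 3.83. Hmox1, the haem-degrading enzyme, stood at 1.31 and 1.66. A single member held 26.8% of the Hmox1 UMIs in WT. The remaining genes of the 20 included Wwp1, Hdac9, Iigp1, Psd3, Cd302, Slc9a9 and Ms4a6b. Of 16 lipid-handling genes outside the rule, 11 were measured, 3 above 0 and 5 below 0 in both libraries, against 504 and 389 of all 1442 genes. Anxa1 was the 1 gene of it past 2-fold, lower in the members, and the list's median was 0.13. The 18 macrophage markers had a median of 0.01, and none was 2-fold apart.

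**Figure D3:**
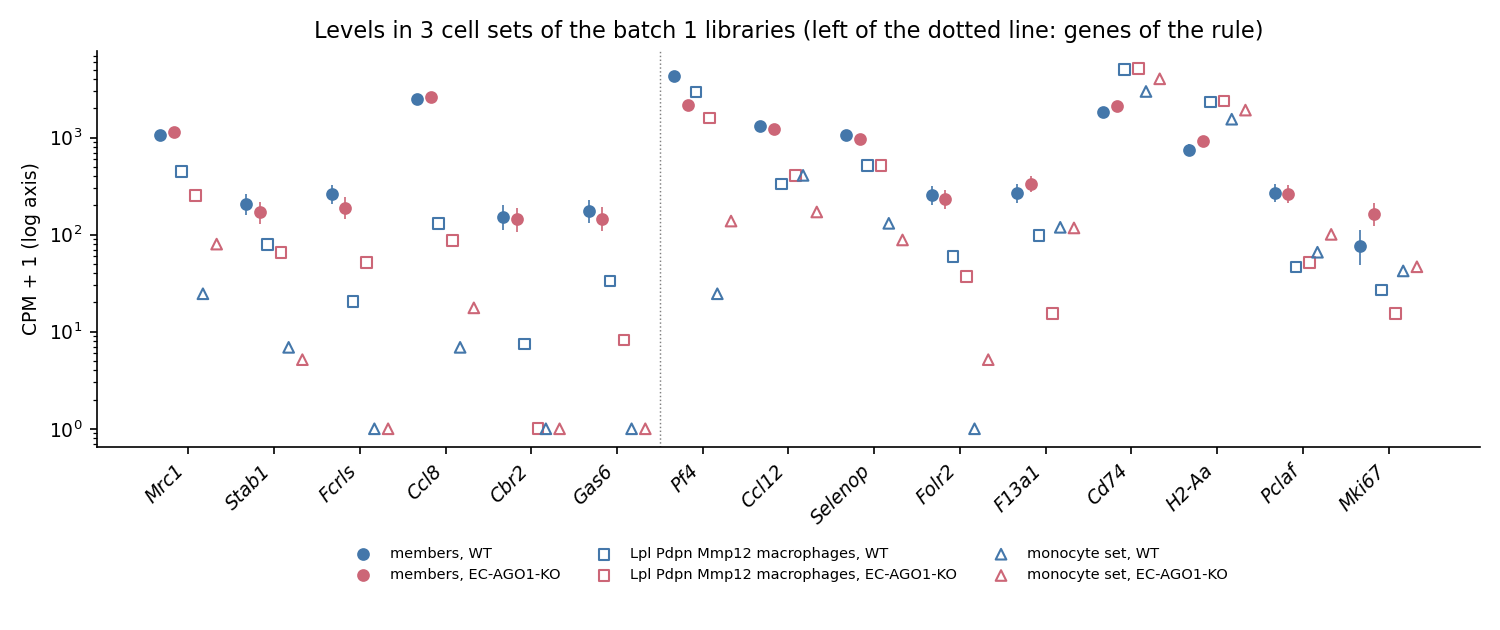
Levels (CPM plus 1, log axis) of the 6 picking genes and of 9 genes outside the rule in members, Lpl Pdpn Mmp12 macrophages and the monocyte set of the WT and KO batch 1 libraries, with exact 95% Poisson intervals for the members. Folr2 and Pclaf are highest in the members of both libraries, and Cd74 and H2-Aa are lowest there.

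Monocytes were the more distant set. The monocyte set took barcodes with at least 2 UMIs of Ly6c2, Plac8, Vcan and Chil3, no fewer than of the C1q, Adgre1 and Csf1r sum, and held 96 barcodes in WT batch 1 and 114 in KO batch 1, with lower median depths of 1657 and 1890.5 UMIs. It also held T cell RNA (590 and 1022 CPM of the T cell list), which was 0 in the members. Of 1679 genes, 5.54% were at least 2-fold higher and 4.94% at least 2-fold lower in the members of both libraries. Pf4 had 4366 CPM in members and 23.7 in the monocyte set of WT and 2190 and 138 in KO. Apoe had 4412 and 107 in WT and 4949 and 247 in KO. Folr2 had 257 CPM in the WT members with 0 UMIs in the WT monocyte set, and 236 and 4.18 CPM in KO. Cadm1, Cd81, Psd3, the growth factor Igf1, the adhesion molecule Vcam1, the cholesterol transporter Abca1 and Selenop completed the 10 largest ratios.

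By group, 8 of the 9 resident genes that passed the same minimum were at least 2-fold higher than in the monocyte set. So were 8 of 15 genes of lysosomes and iron and 6 of 11 lipid-handling genes, against 93 of all 1679 genes. Some resident genes passed the minimum through the members. Folr2 had 78 and 80 UMIs in the members against 0 and 1 in the monocyte set, and Igf1 67 and 58 against 3 and 1. These counts of higher genes are therefore no support of their own. Of 6 monocyte genes measured outside the rule, 5 were at least 2-fold lower. Of 14 interferon response genes, 10 were below 0 in both libraries, with a median of -0.67, and so were all 6 MHC class II genes, with a median of -0.52. Over all genes, 611 of 1679 were below 0 in both. The 5 smallest ratios belonged to Malt1, Gsr, Vps37b, Thbs1 and Ptpn22, with Malt1, a signalling protease of lymphocytes and myeloid cells, at 39.5 against 534 CPM in WT and 35.4 against 518 in KO.

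The members differed among themselves in some genes far more than in most. Over 441 genes with enough UMIs, the variance of the UMIs per cell at 1000 UMIs was 1.17 times the mean in WT and 1.16 times in KO at the median gene. The 15 genes with the largest ratio, ranked by the lower of both libraries, began with the abundant genes Gm42418 (9.80 and 31.3 times), Actb (7.94 and 13.7) and Fth1 (7.90 and 9.30), and included Ftl1 and Malat1. For Ccl8 it was 7.86 and 16.8 times, and for Cd74 9.65 and 6.52 times. Ccl8 is a picking gene, so the rule itself shapes its spread, and a single KO member held 186 of its 907 UMIs. Outside the rule, Cxcl2, Wfdc17, Ifi27l2a, Pf4, Hist1h2ap, Ccl6, Ccl12 and H2-Aa completed the 15. Ccl8 and Cd74 were therefore used to split the members, after these values were seen and with no test.

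Members with Cd74 had less RNA of the resident genes, F13a1 above all. All 9 measured genes of the resident list were lower with Cd74 in both libraries (median log2 -0.96), against 399 of 1480 genes outside the rule, and 2 of the 9, F13a1 and Folr2, were at least 2-fold lower. By the mean log2 of both libraries Selenop was the least apart, with 831 and 1249 CPM in WT and 806 and 1134 in KO. Of the members thinned to 1000 UMIs, 37 in WT and 44 in KO had a Cd74 UMI and 48 and 39 had none. F13a1 was detected in 1 of 37 WT members with Cd74 (2.70%) and 11 of 48 without (22.9%), and in 1 of 44 (2.27%) and 9 of 39 (23.1%) in KO. Folr2 was detected in 1 of 37 and 11 of 48 in WT and in 4 of 44 and 6 of 39 in KO, a smaller gap in KO. Pf4 was found in 62.2% and 81.2% in WT and in 45.5% and 79.5% in KO. The interleukin Il1b, an inflammatory cytokine, leaned the other way, with 40.5% and 18.8% in WT and 40.9% and 17.9% in KO. The cells with an Igf1 UMI had no common direction (10.8% and 29.2% in WT, 13.6% and 5.13% in KO). Of 1480 genes outside the rule, 0.541% were at least 2-fold higher and 0.405% at least 2-fold lower with Cd74 in both libraries, and H2-Aa, H2-Ab1 and H2-Eb1 led the first.

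**Figure D4:**
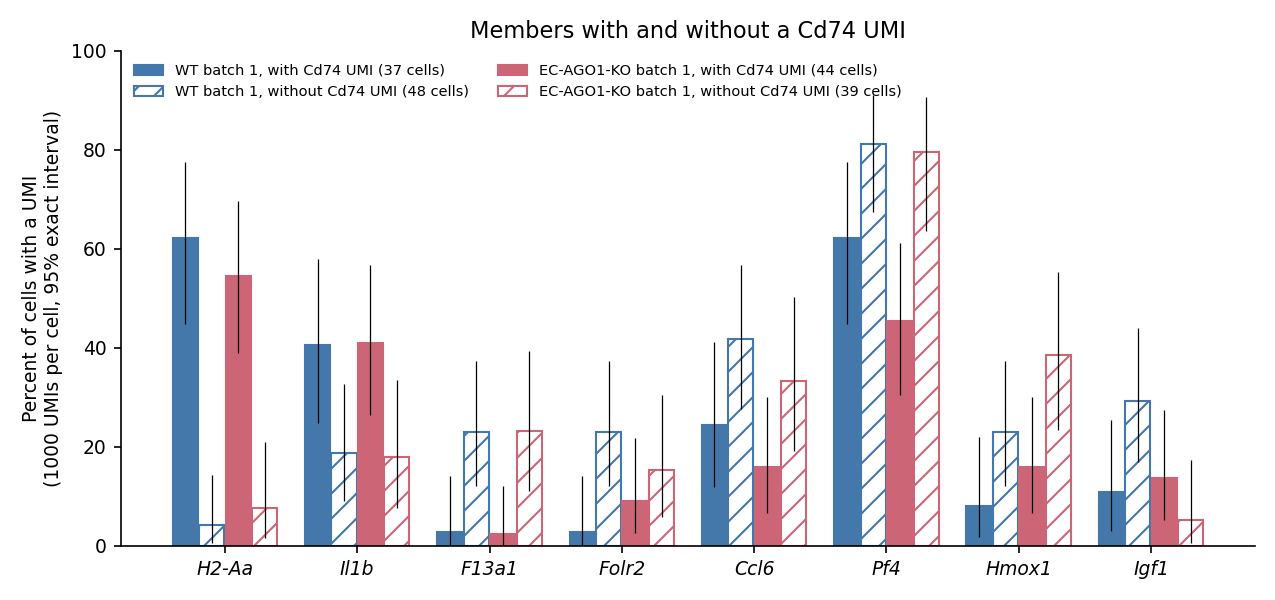
Percent of members with a UMI of 8 genes at 1000 UMIs per cell, in members with and without a Cd74 UMI of each batch 1 library, with exact 95% binomial intervals. F13a1 is seen in 1 of 37 and 1 of 44 members with Cd74 and in 11 of 48 and 9 of 39 without.

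The split by Ccl8 is a description of the rule as well, since members without Ccl8 had to enter by the other picking genes. Some of the genes that went with it were those lower with Cd74. At 1000 UMIs, 38 of 85 WT and 39 of 83 KO members had a Ccl8 UMI. F13a1 had 438 CPM in these and 120 in the others of WT and 525 and 123 in KO, the chemokine Ccl6 1526 and 317 in WT and 893 and 322 in KO, and Hmox1 1010 and 240 in WT and 759 and 240 in KO. Cxcl9 had 233 and 65.9 CPM in WT and 169 and 17.5 in KO, the latter from 3 UMIs. Igf1 and the metallothionein Mt1 were at least 2-fold higher with Ccl8 in both libraries as well. The histone methyltransferase gene Nsd2 was lower with Ccl8 (35.3 and 156 CPM in WT, 64.2 and 152 in KO). Of the 9 resident genes, 8 were higher with Ccl8 in both libraries and Ccl12 was lower in both, against 410 of 1481 genes that were higher. H2-Aa was detected in 7 of 38 members with Ccl8 and 18 of 47 without in WT, and in 9 of 39 and 18 of 44 in KO. Of 1481 genes, 1.01% were at least 2-fold higher and 0.0675% at least 2-fold lower with Ccl8 in both libraries. The KO members with Ccl8 were deeper, with a median of 4414 UMIs against 3306, and its part in these ratios was not tested.

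The expression of KO and WT members was compared within batch 1, 1 library against 1, so each ratio describes 2 tumors. Few genes stood 2-fold apart, and the most abundant of those far apart was Pf4, lower in the KO library. Of 2014 genes outside the rule with at least 50 UMIs over both libraries, 0.497% (10 genes) were at least 2-fold higher and 0.149% (3 genes) at least 2-fold lower in KO, and the median log2 ratio was 0.01. Pf4 had 4301 CPM in WT (4073 to 4539) and 2155 in KO (2002 to 2315), a log2 ratio of -0.99 (-1.13 to -0.87 by counting error), just short of 2-fold. In members thinned to 500 UMIs it was -0.57. A UMI of it was found in 81 of 85 WT and 69 of 86 KO members. The same ratio was -0.88 in the Lpl Pdpn Mmp12 macrophages, -0.11 over all cells outside the members and -0.11 in free RNA, and 2.13 in the monocyte set, which had 4 and 33 UMIs.

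Ccl5, a chemokine of T cells and activated macrophages, was the gene furthest higher in KO, with 169 CPM in WT and 616 in KO (log2 1.81, 1.43 to 2.34). It came from few cells, since 8 WT and 14 KO members had a UMI and single members held 37 of 52 and 85 of 212 UMIs. Without the member with the most UMIs in each library, a setting added after the data were seen, 15 and 127 UMIs were left (log2 2.69). Among members without any UMI of the 5 tumor genes of the rule, Ccl5 stood at 0.74. The log2 ratio of Ccl5 was 1.06 in the monocyte set, 0.60 over all cells outside the members and 0.40 in the Lpl Pdpn Mmp12 macrophages. Free RNA held 141 and 98.2 CPM of Ccl5 (log2 -0.48), and T cell genes were at 0 UMIs in the members.

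The other genes at least 2-fold higher in KO were the histone gene Hist1h2an, Epc1, Mctp1, the ion channel protein Tmem176b, Gm4951, mt-Nd6, Fgl2, the cyclin Ccnd1 and the proliferation marker Mki67. They had 14 to 29 UMIs in WT and 37 to 70 in KO, and log2 ratios of 1.03 to 1.45. Mki67 had 23 and 56 UMIs in 12 and 18 members (log2 1.03, 0.40 to 1.89). Of the 8 cell cycle genes measured, 7 were above 0, but the others reached at most 0.39, with Pclaf at -0.02, and the list's median was 0.20. Hist1h2an shares the limit of the histone family given above. Among members without any UMI of the 5 tumor genes of the rule, Ccnd1 stood at 0.43. With no limit on these genes, Tmem176b, Gm4951, mt-Nd6 and Ccnd1 were at 0.76 to 0.80, short of 2-fold, and Mki67 was at 1.48. At a mitochondrial limit of 20%, mt-Nd6 stood at 0.73. Fgl2 stood at 0.97 among members with at least 3 picking UMIs, also short of 2-fold.

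The genes at least 2-fold lower in KO were the growth factor receptor Fgfr2, the aminopeptidase Lnpep and the gene model AC149090.1. With no limit on the tumor genes, Lnpep stood at -0.58 and AC149090.1 at -0.91, and AC149090.1 stood at -0.85 in members without any tumor gene UMI, all short of 2-fold. Fgfr2 had 276 CPM in WT and 61.0 in KO (log2 -2.01, -2.94 to -1.47), and a single WT member held 23 of its 85 UMIs. In the Lpl Pdpn Mmp12 macrophages the ratio of Fgfr2 was 1.88 and that of Lnpep 1.32, both in the opposite direction. AC149090.1 stood at -0.74 in these macrophages, the same direction as in the members. Of the genes at least 2-fold higher in KO members, Epc1 (-0.82), Mctp1 (-0.51), Gm4951 (-0.42), Ccnd1 (-0.33) and Mki67 (-0.56) were below 0 there. Hist1h2an (3.27), Tmem176b (0.69), mt-Nd6 (0.65), Ccl5 (0.40) and Fgl2 (0.07) were above 0 there. Next came, with Pf4, Tnrc6b, Ier3, the interferon gene Rsad2, Arl8b, Daglb and Itgax at -0.99 to -0.87. Rsad2 stood at -1.62 among members with at least 3 picking UMIs, and Arl8b and Daglb at -0.40 and -0.43 with no limit on the tumor genes. Tnrc6b encodes a partner of Argonaute proteins, and a single WT member held 16 of its 53 UMIs against 4 of 28 in KO.

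**Figure D5:**
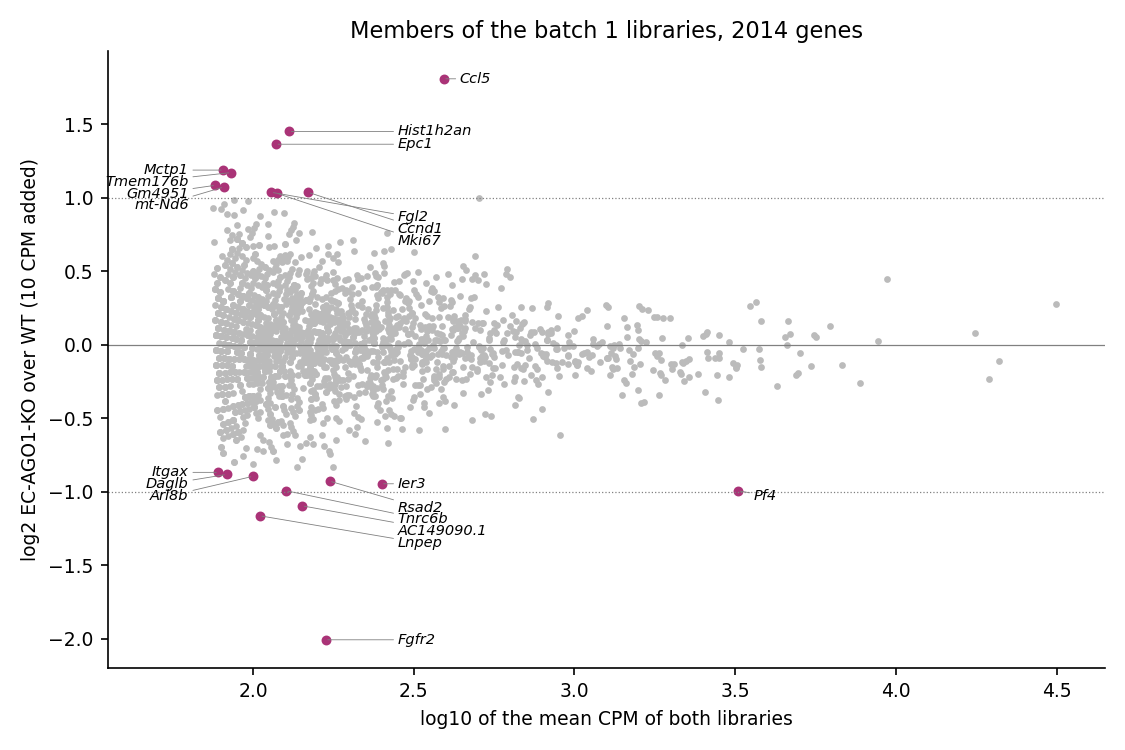
Log2 ratio of KO over WT members in batch 1 (10 CPM added) against log10 of the mean CPM, for 2014 genes outside the rule. The 10 highest and 10 lowest ratios are named, from Fgfr2 at -2.01 to Ccl5 at 1.81, and Pf4 is the most abundant of them.

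No gene list had a median 2-fold apart in this comparison, and some leaned one way. All 6 measured MHC class II genes were above 0, with ratios of 0.02 to 0.48 and a median of 0.23, and at 1000 UMIs per cell 40.0% of WT (29.5 to 51.2) and 47.0% of KO members (35.9 to 58.3) held at least 2 UMIs of the list. Of 12 lipid-handling genes, 2 were above 0, with a median of -0.19, with the lowest ratios in the dendritic cell and macrophage integrin Itgax (-0.87), the fatty-acid binding protein Fabp5 (-0.62) and the lipid droplet protein Plin2 (-0.57). Of the 9 resident genes, 3 were above 0 (median -0.12), of 14 interferon genes 10 (median 0.12), of 12 chemokines 6 (median 0.01) and of 16 genes of lysosomes and iron 4 (median -0.06). Of the 12 transcription factors, 8 were above 0 (median 0.22), with Klf4 at 0.76 and Klf2 at 0.64. Fabp5, Plin2, Klf2 and Klf4 were picked after their values were seen. Over all 2014 genes, 1048 were above 0.

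Of the 6 inflammatory genes measured, 2 were above 0 (median -0.32), and Nos2 had 2 and 1 UMIs. Of the 13 immediate early genes, which dissociation of tissue can induce, 4 were above 0 (median -0.07), and Fos had 1092 and 1051 CPM. Of 5 scavenger and efferocytosis genes 3 were above 0 (median 0.09), of 7 complement genes 3 (median -0.02), of 9 growth factor and matrix genes 2 (median -0.23), of 4 alternatively activated genes 1 (median -0.13), and of 3 monocyte genes 1 (median -0.13). Only Ccl5 among the chemokines and Mki67 among the cell cycle genes reached 2-fold in any of these lists.

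The 5 members of batch 2 were shallow and met the rule narrowly. They had 472 UMIs in WT 5, 357 in KO 1, 752 in KO 2+3, and 310 and 249 in KO 4. In 4 of them the picking genes had exactly 2 UMIs, of Ccl8 in WT 5 and KO 1, of Mrc1 in KO 2+3, and of Mrc1 and Fcrls in the first KO 4 barcode, and the second had 3 of Mrc1. Actb took 39.6% of the UMIs in WT 5, 28.9% in KO 2+3, 14.8% and 6.43% in KO 4 and 6.72% in KO 1. Lyz2 had 0, 1, 1, 0 and 3 UMIs in the same order as the depths, and Apoe had 4 in KO 1 and 0 in the others. These cells cannot carry a comparison of levels.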

How the data were processed

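Single-cell RNA was measured in 10 tumor libraries (10x Genomics 3′ chemistry). The deposited matrices hold raw UMI counts, 31053 genes by barcode, which the authors produced with Cell Ranger 7.1.0 against mm10. Empty droplets were included and nothing was normalized. Their integration, clustering and annotation were not used. Barcodes were limited by genes and mitochondrial UMIs as in the study's methods. The rule was applied to raw counts, doublets were not removed, and members were summed per library. The members, gene lists and tests were chosen with earlier results of these data known.

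Shares of members were compared by an exact permutation test with genotype permuted within batch. The models planned for genotype, batch and their interaction in the members (3 tests) could not be fitted, because only 2 libraries, 1 of each genotype, held at least 10 members. Ratios of CPM with 10 CPM added were given instead. The rule for named genes was changed accordingly, to the 10 largest and 10 smallest KO over WT ratios among genes outside the rule with at least 50 UMIs. Against other sets it took the 10 largest and 5 smallest ratios among genes with at least 100 UMIs over both sets and 1 direction, and of each list the most abundant genes. Ratios, intervals and the permutation test were tested on simulated data. Cells were thinned without replacement with a fixed seed. Gene positions were taken from GENCODE vM21. Alternatives covered depth, limits of the rule, scaling, added CPM, pooled libraries and each library left out. Of the genes the study names for macrophages, 1 is not reported here. Python 3.11.15, numpy 2.4.6, scipy 1.17.1, pandas 2.3.3 and matplotlib 3.10.9 were used.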

Additional observations from a re-analysis of the deposited data

Results flagged for a closer look

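By a test for a single far value among 5, which about 1 group in 20 meets by chance, some batch 1 shares stood apart from their group. WT batch 1 did so in both shares of members, and KO batch 1 in the share of all cells only. WT batch 1 had 39.0% of its macrophage barcodes as members, against at most 6.67% in the other WT libraries. KO batch 1 had 39.8%, against at most 14.3% in the other KO libraries, and did not meet the test. As a share of all cells, WT batch 1 had 7.12% and KO batch 1 had 8.88%, against at most 0.0161% and 0.0277% in the other libraries of the same genotype. Batch, sequencer and depth per cell go together in these libraries and cannot be told apart.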

How the results depend on the processing

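The KO minus WT difference in the share of members kept its sign and stayed without a call under all settings that change the rule, the depth or the mitochondrial limit, and in batch 2 alone, but not its size. It was 1.03 points of macrophages with at least 3 picking UMIs and 0.0838 points of all cells without any tumor gene UMI. Thinned to 500 UMIs, 5 libraries were left for the share of macrophages (3.67 points, exact permutation p = 1). The difference was 13.1 points of macrophages without both pooled KO libraries. With each library left out in turn it ranged from -1.70 to 12.2 points of macrophages and from -1.41 to 1.78 points of all cells, with a reversed sign without KO batch 1. Without KO 5+6 it was 8.25 points of macrophages and 0.808 points of all cells, against 0.00968 points of all cells in batch 2 alone. With KO libraries left out, KO batch 1 weighs more in the KO mean and the permuted differences are not centred on 0. No call was therefore made from these settings. With the replicate number as a block (pairs of batch 1, number 1 and number 4, added after the data were seen), the differences were 9.20 and 0.602 points, each with an exact permutation p of 0.25, the smallest 3 pairs allow. The samples share only a number. Of the counts of genes 2-fold higher in KO, 10 became 21 with no limit on tumor genes, 17 with 1 CPM added, 3 with 50 CPM added, 0 in members thinned to 500 UMIs (97 genes left) and 329 of 12176 genes with no minimum of UMIs. Of those 2-fold lower, 3 became 6 with at least 3 picking UMIs, 7 without any tumor UMI, 5 with median ratio scaling, 1 with 50 CPM added, 1 when thinned and 312 with no minimum. Against the Lpl Pdpn Mmp12 macrophages, 20 higher genes became 9 with 50 CPM added and 1 when thinned (53 genes left), and 9 lower genes became 0 when thinned. Not run, for want of a second library per genotype, were DESeq2, the edgeR fits with and without batch, replicate block or pooled libraries, a UMI in every library, a minimum of 20 members and batch 2 against batch 1. Depth limits genes under about 50 UMIs and all of batch 2.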

Other observations

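Outside the genes with at least 50 UMIs, the iron exporter Slc40a1 differed between the members of the batch 1 libraries. It had 31 UMIs in 14 WT members and 3 UMIs in 3 KO members, a KO over WT ratio of 0.0867 with a counting interval of 0.0170 to 0.278. In the Lpl Pdpn Mmp12 macrophages it had 1 UMI in WT and 5 UMIs in KO.

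The receptor Marco, a scavenger receptor of macrophages that line sinuses and airways, had 10 UMIs in 4 WT members and 3 UMIs in 1 KO member, with 0 in the Lpl Pdpn Mmp12 macrophages and in the monocyte set of both libraries. Slc40a1 and Marco were chosen after their values were seen.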
